A study of Mus musculus with 20 samples.

Results

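Thyroid hormone acts through a short chain of steps, and 5 mouse genes that mark those steps are described here. Deiodinases remove iodine from thyroid hormone in the tissue, and the type 1 enzyme, encoded by Dio1 and found mainly in liver and kidney, converts thyroxine to the active hormone triiodothyronine and also clears inactive forms. Membrane carriers move the hormone across the cell membrane, and the nuclear receptors encoded by Thra and Thrb bind it on DNA with a retinoid X receptor as partner. Dio1 and Thrsp are textbook target genes of the hormone, the second of them best known from liver and fat, where it is tied to fatty acid synthesis. The 5 genes, Dio1, Slc16a10 (a carrier of aromatic amino acids that also moves thyroid hormone), Thra, Thrb and Thrsp, were taken by symbol from the 55642 genes in the files. They were selected on their read counts by organ and group in these same 20 libraries, with differences between the groups already known, so the fold changes and p-values of the 5 genes are descriptions and not independent evidence. Their identifiers are ENSMUSG00000034785.16 for Dio1, ENSMUSG00000019838.12 for Slc16a10, ENSMUSG00000058756.14 for Thra, ENSMUSG00000021779.20 for Thrb and ENSMUSG00000035686.9 for Thrsp. All 5 passed the filter on low counts in both organs.

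The libraries came from kidney and liver of male DBA/2J mice and the labels name no transgene or deletion in any group. JQ1-treated mice received JQ1, an inhibitor of BET bromodomain proteins, by daily intraperitoneal injection of 50 mg/kg for 3 weeks. The JQ1 treatment group (3 libraries an organ) was sampled when dosing stopped, at an age of 10 weeks. The JQ1 recovery group (3 libraries an organ) was left undosed for a further 6 weeks and sampled at an age of 16 weeks. Vehicle-injected mice were sampled at 10 weeks (3 libraries an organ) and at 16 weeks (1 library an organ), and the 4 were pooled as vehicle. Age is therefore not matched between JQ1 recovery and pooled vehicle. JQ1 treatment and JQ1 recovery differ in age as well as in time since dosing, and these cannot be separated. The labels number the replicates without naming animals, so the p-values measure the spread between these samples. Because each library comes from bulk organ tissue, fewer cells of a type and less RNA per cell cannot be told apart.

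Reads assigned to genes ran from 13952510 to 26895318 in the 10 kidney libraries and from 11968500 to 17529910 in the 10 liver libraries. The labelled organ was checked with marker genes. Summed hepatocyte markers reached 33030 to 93220 CPM (counts scaled to a common library total) in liver and 778.9 to 1311 CPM in kidney, and 5 markers of thyroid tissue stayed at or below 2.15 CPM in every library. Of the liver libraries, 2 stood apart. Markers of kidney epithelium summed to 5603 CPM in JQ1 recovery library 2 and to 2795 CPM in JQ1 recovery library 3, which is 21.9% and 10.9% of the mean in kidney JQ1 recovery libraries, against 1.77 to 5.30 CPM in the liver JQ1 treatment and vehicle libraries and 24.7 CPM in JQ1 recovery library 1. The fold changes of the 5 genes that set liver JQ1 recovery against another group are therefore given with and without them. Without them the JQ1 recovery arm is 1 library, which is assumed to vary like the other groups. The shares of all genes called in liver and the correlations with other genes in liver were computed with all 10 libraries.

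Dio1 is a selenoenzyme: its messenger carries an in-frame TGA codon that is read as selenocysteine, the residue of the active site. This codon is shown because Dio1 had the largest called fold change of the 5 genes at treatment in each organ, and because all of its assigned reads, 22 to 277 a library in kidney and 477 to 1350 in liver, fell on the 1 transcript that holds the stretch, Dio1-201. The stretch of 63 bases lies in an exon of the coding sequence at chr4:107297670-107297732 on the minus strand (GENCODE M21, GRCm38), with the TGA, codon 126 of 257, in capitals.
Dio1-201: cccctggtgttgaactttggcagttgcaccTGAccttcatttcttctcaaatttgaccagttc

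The 250 bases before the annotated start (RefSeq, GRCm38.p6) were read for 4 of the 5 genes, and those of Dio1, the gene that fell in both organs, and of Thrb, the receptor gene that was called in neither organ, are shown side by side. The window of Dio1 lies at chr4:107307169-107307418 on the minus strand. Thrb has 2 starts in the table, with windows at chr14:17660710-17660959 and chr14:17981394-17981643 on the plus strand.
Dio1: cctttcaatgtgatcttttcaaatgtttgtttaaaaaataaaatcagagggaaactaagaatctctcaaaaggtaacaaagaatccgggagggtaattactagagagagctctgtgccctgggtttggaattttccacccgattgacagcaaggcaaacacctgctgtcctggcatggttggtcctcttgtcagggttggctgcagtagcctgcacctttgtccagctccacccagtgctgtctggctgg
Thrb, first start: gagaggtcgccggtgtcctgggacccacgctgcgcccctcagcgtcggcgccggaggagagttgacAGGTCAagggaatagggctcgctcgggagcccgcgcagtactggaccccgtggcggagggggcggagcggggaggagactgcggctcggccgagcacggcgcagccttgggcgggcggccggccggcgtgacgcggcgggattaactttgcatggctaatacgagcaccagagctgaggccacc
Thrb, second start: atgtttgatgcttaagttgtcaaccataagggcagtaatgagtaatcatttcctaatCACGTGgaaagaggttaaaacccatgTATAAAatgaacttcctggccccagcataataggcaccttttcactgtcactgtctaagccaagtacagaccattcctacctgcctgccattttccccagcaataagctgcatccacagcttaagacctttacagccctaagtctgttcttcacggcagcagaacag
The capitals mark matches to letters searched on both strands: AGGTCA (the half-site that nuclear receptors bind), CACGTG (the E-box), TATAAA (the TATA box) and AGGTCA repeated after NNNN (the direct repeat bound by receptor dimers). AGGTCA stood 184 bases before the first Thrb start, and CACGTG and TATAAA stood 193 and 167 bases before the second. None of the 4 motifs was in the windows of Dio1, Thrsp or Slc16a10, which says only that these letters are not in these windows. Over all 32851 windows of this length, 14.0% held AGGTCA, 6.02% held CACGTG, 12.4% held TATAAA and 0.0152% held the repeat.

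Dio1 was lower at the end of JQ1 dosing in both organs. In kidney its level was 1.53, 1.79 and 1.83 CPM in the JQ1 treatment libraries, 9.76, 13.2 and 10.1 CPM in the JQ1 recovery libraries and 6.93 to 12.6 CPM in the 4 vehicle libraries (CPM are scaled within each organ by the trimmed mean of M-values, TMM). All 3 JQ1 treatment libraries lay below every other kidney library, and the JQ1 recovery and vehicle libraries overlapped. The mean at treatment was 19.8% of the vehicle mean (1.72 ± 0.162 CPM, SD, n = 3, against 8.67 ± 2.63 CPM, n = 4). In the fit across all genes with edgeR's quasi-likelihood test and Benjamini-Hochberg adjustment, Dio1 fell by 2.33 on the log2 scale (SE 0.23, 95% interval -2.82 to -1.84, adjusted p = 1.06e-05). This rests on 22 to 48 reads a library at treatment, against 105 to 277 in vehicle libraries.

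In liver, where Dio1 is more abundant, its level was 41.9, 41.7 and 40.7 CPM in the JQ1 treatment libraries, 74.8, 58.0 and 69.5 CPM in the JQ1 recovery libraries and 70.9 to 78.2 CPM in the vehicle libraries. The 3 JQ1 treatment libraries were again the lowest of the organ, without overlap with either of the other groups. The mean at treatment was 55.6% of the vehicle mean (41.4 ± 0.637 CPM, SD, n = 3, against 74.5 ± 3.54 CPM, n = 4), and the log2 fold change was -0.85 ± 0.10 (SE, 95% interval -1.07 to -0.62, adjusted p = 0.00239 by edgeR). In a fit without JQ1 recovery libraries 2 and 3 it was -0.86. These libraries are in neither group compared here, but they enter the gene filter, the scaling and the spread. The lowest of the JQ1 recovery libraries, at 58.0 CPM, was library 2, the one with the most kidney marker reads.

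**Figure D1:**
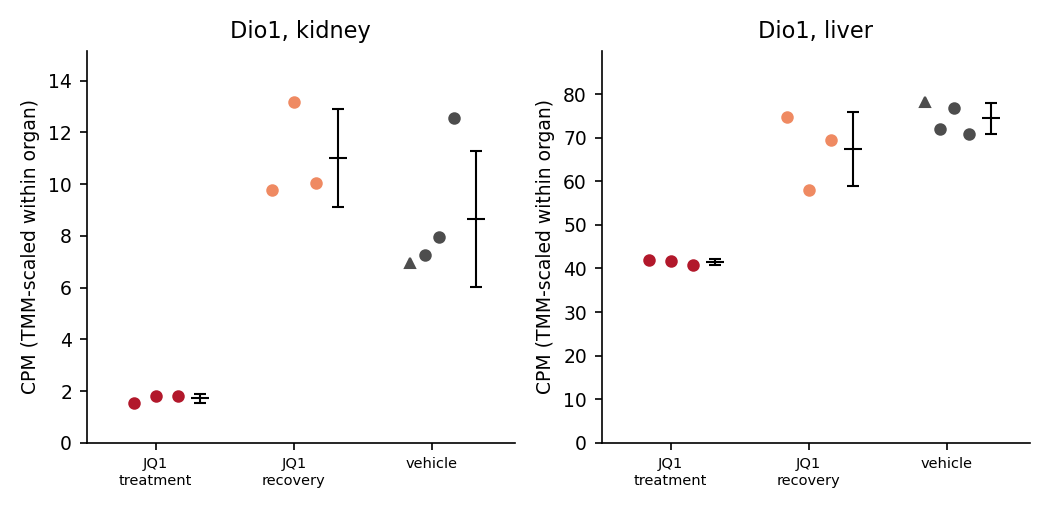
Dio1 level in CPM in each library of kidney (left) and liver (right), with JQ1 treatment, JQ1 recovery and vehicle libraries from left to right (triangle, the vehicle recovery library); the bar beside each group is the mean and its SD. The JQ1 treatment libraries sit at 1.53 to 1.83 CPM in kidney and 40.7 to 41.9 CPM in liver, below all other libraries of the organ.

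The size of the Dio1 difference was then compared between the organs in a joint fit of all 20 libraries. The log2 change was lower in kidney than in liver by 1.48 ± 0.25 (kidney minus liver -1.48, SE, adjusted p = 0.0117 by edgeR). Of the 17710 genes tested, 0.169% were called in this comparison (0.0339% higher and 0.136% lower), and Dio1 was the 1 member among them. The call was lost without kidney JQ1 treatment library 1 (-1.41, adjusted p = 0.0564 by edgeR). It was also lost with kidney and liver libraries of the same group and replicate number fitted as pairs (adjusted p = 0.143 by edgeR). The labels do not say whether such a pair came from the same animal. The main joint fit treats all 20 libraries as independent. Leaving out liver JQ1 recovery libraries 2 and 3 gave a difference of -1.46.

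After 6 weeks without JQ1, Dio1 was not called against vehicle in either organ. The log2 fold change of JQ1 recovery against vehicle was 0.34 in kidney (95% interval -0.07 to 0.74, adjusted p = 0.63 by edgeR) and -0.14 in liver (95% interval -0.36 to 0.07, adjusted p = 0.516 by edgeR). The liver value was 0.00 without JQ1 recovery libraries 2 and 3, which leaves 1 recovery library. In kidney the 1 vehicle library of the same age, at 6.93 CPM, lay below the JQ1 recovery libraries (9.76 to 13.2 CPM). In liver the vehicle library of that age, at 78.2 CPM, lay above the JQ1 recovery libraries (58.0 to 74.8 CPM). Over 15 alternatives the kidney log2 fold change of recovery against vehicle ran from 0.19 to 0.667. Set against JQ1 recovery, Dio1 at treatment was lower by 2.67 ± 0.24 in kidney (log2 fold change -2.67, SE, adjusted p = 2.82e-06) and by 0.70 ± 0.11 in liver (log2 fold change -0.70, SE, adjusted p = 0.00877, both by edgeR). In liver the second value was -0.86 (adjusted p = 0.00154 by edgeR) without the 2 libraries, with the spread taken from the other groups. Leaving out liver JQ1 recovery library 3 alone or any 1 liver JQ1 treatment library gave adjusted p-values of 0.0505 to 0.0828 for it. The part of age in the differences between JQ1 treatment and JQ1 recovery was not tested.

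**Figure D2:**
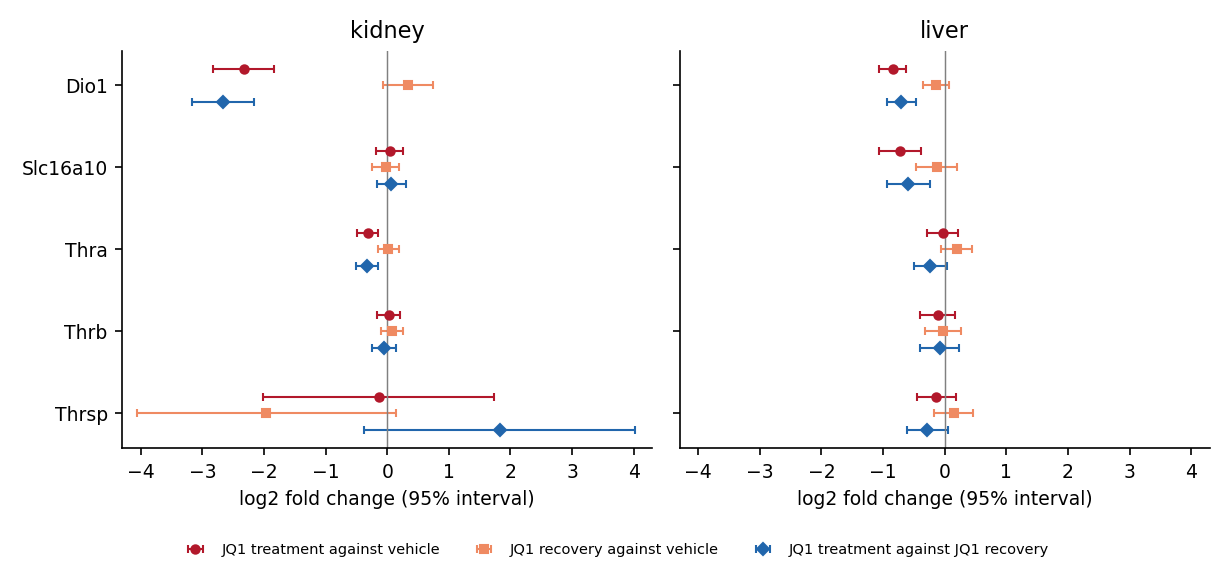
Log2 fold change of the 5 genes (rows) in kidney (left) and liver (right) from the edgeR fit of each organ, for JQ1 treatment against vehicle, JQ1 recovery against vehicle and JQ1 treatment against JQ1 recovery; bars are 95% intervals. Dio1 at treatment is at -2.33 in kidney and -0.85 in liver, while Thrsp in kidney has intervals that cross 0 in all 3 comparisons.

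Slc16a10, the carrier, had a lower level at treatment in liver, short of the threshold, and overlapping levels in the kidney groups. In liver it was at 16.3, 22.3 and 21.1 CPM in the JQ1 treatment libraries, 33.2, 28.3 and 28.3 CPM in the JQ1 recovery libraries and 28.2 to 41.8 CPM in the vehicle libraries. The JQ1 treatment libraries did not overlap with either of the other groups, and their mean was 60.7% of the vehicle mean. The log2 fold change was -0.72 ± 0.16 (SE, 95% interval -1.06 to -0.39) with an adjusted p of 0.0607 by edgeR, so it was not called. It was called by DESeq2 (adjusted p = 0.00493) and without liver JQ1 recovery libraries 2 and 3 (-0.74, adjusted p = 0.0111 by edgeR). Over 16 alternatives its adjusted p ran from 0.00434 to 0.317, the highest without JQ1 treatment library 1. Against JQ1 recovery the log2 fold change at treatment was -0.59 ± 0.17 (SE, adjusted p = 0.0737 by edgeR), and -0.75 without the 2 recovery libraries (adjusted p = 0.133 by edgeR). JQ1 recovery differed from vehicle by -0.13 (95% interval -0.46 to 0.19) with them and by 0.01 without them.

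In kidney, Slc16a10 stood at 27.2, 23.9 and 23.0 CPM in the JQ1 treatment libraries, 25.0, 22.3 and 23.5 CPM in the JQ1 recovery libraries and 20.6 to 26.8 CPM in the vehicle libraries. The groups overlapped, and the 95% interval of the log2 fold change of treatment against vehicle was -0.18 to 0.26. The difference between the organs for this gene was 0.77 ± 0.19 (kidney minus liver, SE, adjusted p = 0.157 by edgeR) and was not called by edgeR, with an adjusted p of 0.0495 by DESeq2. Between 85.3% and 95.9% of its reads were on 1 transcript, Slc16a10-201, in all 20 libraries.

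The receptor genes moved little. Thra, which encodes the alpha receptor, was at 56.1, 66.6 and 58.6 CPM in the kidney JQ1 treatment libraries, 76.2, 79.1 and 72.7 CPM in the JQ1 recovery libraries and 68.3 to 80.3 CPM in the vehicle libraries. The JQ1 treatment libraries were the 3 lowest of the organ, the gap to the vehicle libraries being that between 66.6 and 68.3 CPM. The log2 fold change was -0.31 ± 0.08 (SE, adjusted p = 0.0359 by edgeR) against vehicle and -0.33 ± 0.09 (SE, adjusted p = 0.0261 by edgeR) against JQ1 recovery. Both calls are marginal. Against vehicle, over 15 alternatives the log2 fold change was -0.41 to -0.26 and the adjusted p 0.0116 to 0.144, and the call was lost without JQ1 treatment library 1 (adjusted p = 0.14) or 3 (0.144), vehicle treatment library 1 (0.0702) or 3 (0.0999) and the vehicle recovery library (0.0879). It was also lost with length-scaled TPM counts (0.13), with vehicle of the same time only (0.0823) and with only both arms in the fit (0.0776). The replicate number as a block ended this call too. Against JQ1 recovery the call was lost with length-scaled TPM counts (adjusted p = 0.0711) and without JQ1 recovery library 1 (0.0813) or 2 (0.114) or JQ1 treatment library 1 (0.089) or 3 (0.0964), all by edgeR.

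In liver Thra was at 25.9, 25.5 and 21.3 CPM in the JQ1 treatment libraries, 24.6, 29.3 and 31.7 CPM in the JQ1 recovery libraries and 24.0 to 25.6 CPM in the vehicle libraries. Treatment and vehicle overlapped (log2 fold change -0.04, 95% interval -0.29 to 0.22, adjusted p = 0.965 by edgeR). The 2 JQ1 recovery libraries above the vehicle range are those with kidney marker reads, and Thra had the higher level in kidney in CPM and in TPM; without them the log2 fold change of recovery against vehicle was -0.02, against 0.20 with them. The part of kidney RNA in that value was not tested.

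Thra makes a pair of main coding transcripts. Thra-201 took on average 65.5% of its reads at treatment, 66.2% in recovery and 68.2% in vehicle libraries of the kidney, and Thra-202 took 28.0%, 26.5% and 26.4%, so the split was close in all kidney groups. In liver Thra-202 had 38.0% of the reads at treatment and 39.4% in vehicle libraries. Exons of Thra share 263 bases with exons of Nr1d1, a clock repressor on the opposite strand (GENCODE M21). The strand setting of the counting is not given in the sources used here, so reads from the shared stretch cannot be told apart. Nr1d1 had log2 fold changes of -0.41 (adjusted p = 0.325) in kidney and -1.05 (adjusted p = 0.51) in liver at treatment against vehicle, neither called by edgeR.

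Thrb, which encodes the beta receptor, was the steadiest of the 5 in kidney. It was at 43.2, 42.5 and 43.7 CPM in the JQ1 treatment libraries, 48.8, 38.6 and 47.0 CPM in the JQ1 recovery libraries and 39.4 to 45.0 CPM in the vehicle libraries, with all groups overlapping. In liver it was at 42.1 to 55.2 CPM in the JQ1 treatment libraries, 59.0, 39.1 and 54.5 CPM in the JQ1 recovery libraries and 49.9 to 53.9 CPM in the vehicle libraries, again with overlap. The lowest, at 39.1 CPM, was JQ1 recovery library 2, and recovery against vehicle was -0.03 on the log2 scale, and 0.18 without libraries 2 and 3. The 95% interval of the log2 fold change at treatment was -0.16 to 0.21 in kidney and -0.41 to 0.17 in liver. The highest over the lowest of the 10 kidney libraries was 1.26 for Thrb, against 1.32 for Slc16a10, 1.43 for Thra, 8.61 for Dio1 and 11 for Thrsp.

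Thrsp varied widely between single kidneys of a group. It was at 43.4, 10.4 and 25.0 CPM in the JQ1 treatment libraries, 9.82, 5.60 and 6.46 CPM in the JQ1 recovery libraries, and 32.8, 10.9 and 61.6 CPM in the vehicle treatment libraries and 7.35 CPM in the vehicle recovery library. The JQ1 treatment libraries lay within the range of the vehicle libraries. The JQ1 recovery libraries lay around the vehicle recovery library and below the 3 vehicle treatment libraries. The log2 fold change was -0.14 ± 0.80 at treatment (SE, adjusted p = 0.958 by edgeR) and -1.96 ± 0.89 in recovery (SE, adjusted p = 0.578 by edgeR), neither called. All 3 JQ1 treatment libraries lay above the JQ1 recovery libraries, a log2 fold change of 1.82 ± 0.93 that was not called (SE, adjusted p = 0.314 by edgeR). Against the 1 vehicle library of the same age, the recovery difference was -0.02, against -1.96 with all 4 vehicle libraries.

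Genes of fat cells moved with Thrsp across the kidneys. Summed over 14 adipocyte markers, the level was 1139, 136.4 and 360.1 CPM in the JQ1 treatment libraries, 150.8, 152.4 and 144.6 CPM in the JQ1 recovery libraries, and 342.3, 262.9 and 586.5 CPM in the vehicle treatment and 202.0 CPM in the vehicle recovery libraries. The 4 kidneys with the most Thrsp were the 4 with the highest marker sum. None of the 14 markers was at 0 in any kidney library. All 14 had a lower fitted level in recovery than in vehicle, at a median log2 fold change of -1.79 against -0.01 over all 17158 genes tested, with 0 called by edgeR, 0 by DESeq2 and 4 at an unadjusted p below 0.05. Of all genes tested in that comparison, 0.00583% were called by edgeR and 1571 had an unadjusted p below 0.05. What adipose RNA adds to the kidney level of Thrsp was not tested.

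**Figure D3:**
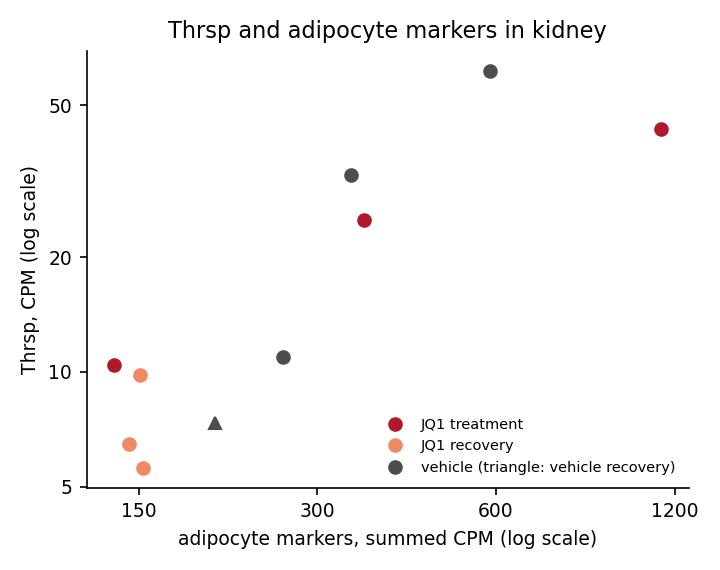
Thrsp level (CPM, log scale) against the summed level of 14 adipocyte markers (CPM, log scale) in the 10 kidney libraries, coloured by group, with the vehicle recovery library as a triangle. The JQ1 recovery libraries lie together at 5.60 to 9.82 CPM, while JQ1 treatment libraries range from 10.4 to 43.4 CPM and vehicle libraries from 7.35 to 61.6 CPM.

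In liver, where Thrsp was abundant, it was at 115.3, 150.3 and 152.7 CPM in the JQ1 treatment libraries, 185.3, 150.6 and 172.3 CPM in the JQ1 recovery libraries and 124.0 to 192.9 CPM in the vehicle libraries. All groups overlapped the vehicle libraries. The log2 fold change was -0.14 at treatment (95% interval -0.45 to 0.18, adjusted p = 0.855 by edgeR) and 0.15 in recovery (95% interval -0.17 to 0.46, adjusted p = 0.687 by edgeR), the second being 0.27 without JQ1 recovery libraries 2 and 3.

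**Figure D4:**
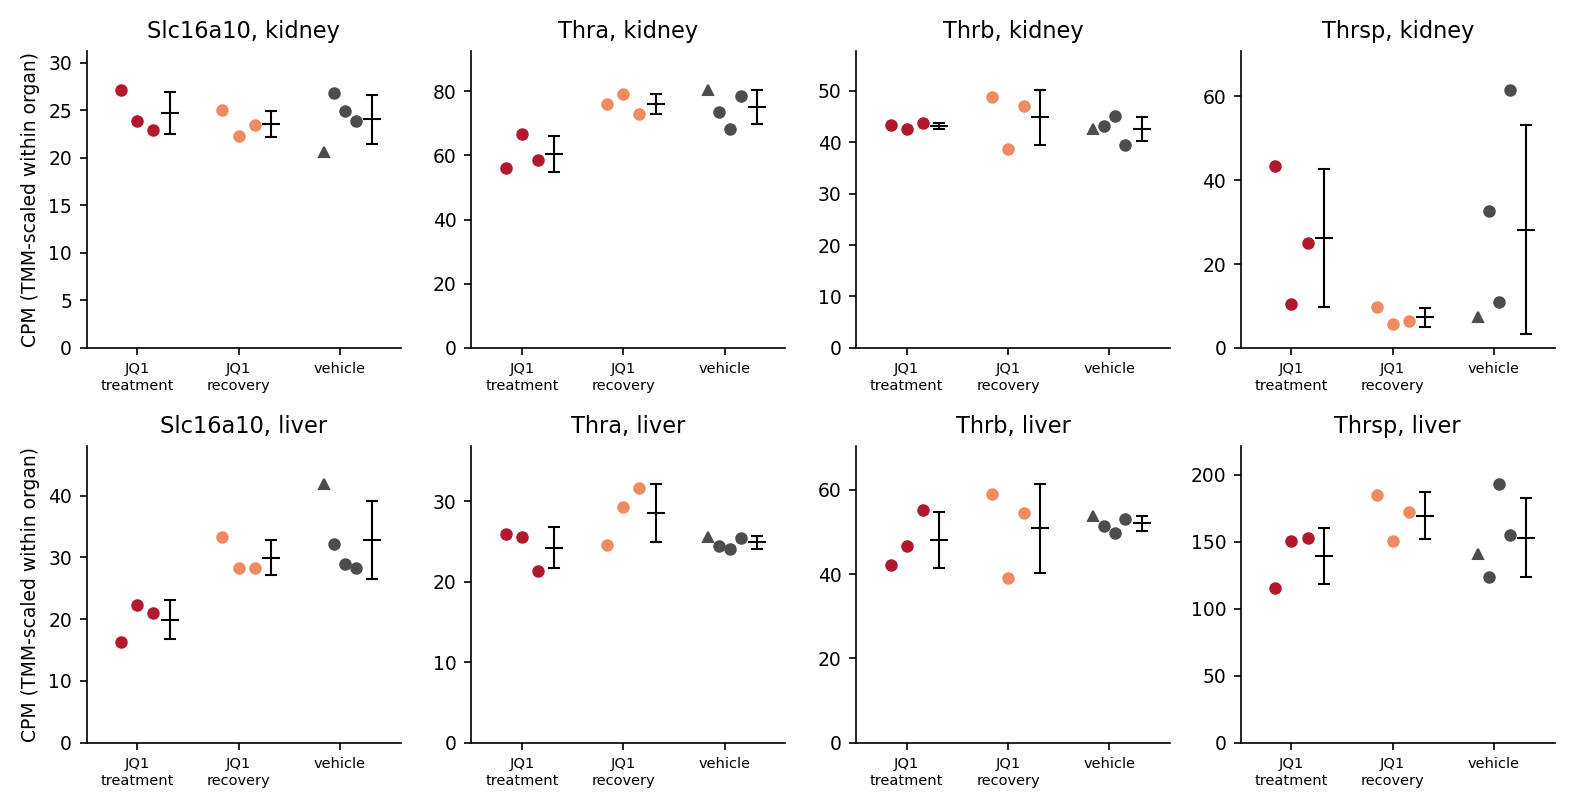
Levels of Slc16a10, Thra, Thrb and Thrsp in CPM in each library of kidney (top) and liver (bottom), with JQ1 treatment, JQ1 recovery and vehicle from left to right (triangle, the vehicle recovery library); the bar beside each group is the mean and its SD. Slc16a10 in liver (not called) and Thra in kidney have their JQ1 treatment libraries below those of both other groups, at 16.3 to 22.3 and 56.1 to 66.6 CPM.

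Counted over the 5 genes, 0 rose and 2 fell in kidney at treatment against vehicle (Dio1 and Thra), where 4.13% of the 17158 genes tested were called, 1.4% higher and 2.73% lower. In liver 0 rose and 1 fell (Dio1), where 0.495% of 14559 genes were called, 0.268% higher and 0.227% lower. Nothing is read from these shares, since the genes were chosen with these comparisons known. In recovery against vehicle 0 of the 5 were called in either organ by edgeR or DESeq2, and 0 had an unadjusted p below 0.05. In that comparison 0.00583% of genes were called in kidney and 0.0343% in liver (0.0137% higher and 0.0206% lower). An unadjusted p below 0.05 was held by 1571 of 17158 genes in kidney and 2430 of 14559 in liver. At treatment against recovery 2 fell in kidney (Dio1 and Thra), where 7.31% of genes were called, 2.41% higher and 4.91% lower. In liver 1 fell (Dio1), where 2.29% were called, 1.31% higher and 0.989% lower. Both sets of treatment comparisons share the JQ1 treatment libraries.

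In vehicle mice the levels of the 5 genes were ordered differently in the organs, read in TPM, a measure of transcript abundance scaled for length and depth. In kidney the mean levels were 27.5 ± 2.69 for Thra, 20.6 ± 18.4 for Thrsp, 8.78 ± 0.667 for Thrb, 4.50 ± 1.40 for Dio1 and 4.11 ± 0.394 TPM for Slc16a10 (SD, n = 4). Thra and Thrsp overlapped, as did Thrsp and Thrb and also Dio1 and Slc16a10, while Thrb and Dio1 did not. In liver the levels were 69.2 ± 18.7 for Thrsp, 23.8 ± 2.86 for Dio1, 6.85 ± 0.670 for Thrb, 5.60 ± 0.409 for Thra and 3.42 ± 0.635 TPM for Slc16a10, with no overlap between neighbours. Thra stood above Thrb in every vehicle library of kidney and below it in every vehicle library of liver.

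The joint fit set kidney against liver in vehicle mice, where 61.8% of the 17710 genes tested were called, 32.1% higher and 29.6% lower in kidney. Of the 5 genes, 1 was higher in kidney (Thra, log2 fold change 0.81 ± 0.09) and 4 were lower in kidney: Dio1 at -3.88 ± 0.16, Thrsp at -3.22 ± 0.57, Slc16a10 at -1.24 ± 0.13 and Thrb at -1.08 ± 0.11 (SE). The scaling matters for this comparison, because TMM factors moved the median of all genes by -0.85 (log2) against scaling by library size alone. With library size alone Thra stood at 1.67, Dio1 at -3.02, Thrsp at -2.37, Slc16a10 at -0.38 and Thrb at -0.22. In TPM the mean of kidney over that of liver was 4.90 for Thra, 0.189 for Dio1 and 0.297 for Thrsp, but 1.28 for Thrb and 1.20 for Slc16a10, so the direction of Thrb and Slc16a10 between the organs turned with the scale and that of the other genes did not.

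**Figure D5:**
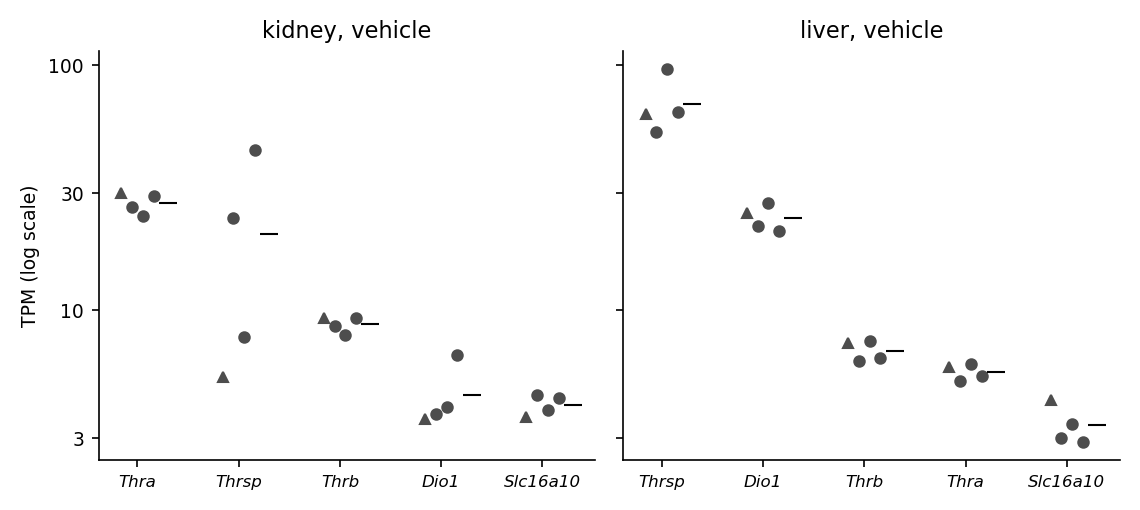
Level of the 5 genes in TPM (log scale) in the 4 vehicle libraries of kidney (left) and of liver (right), each organ ordered from its highest mean, with the vehicle recovery library as a triangle and the mean as a bar. Thra leads in kidney at a mean of 27.5 TPM, and Thrsp leads in liver at 69.2 TPM.

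Around Dio1, the other genes of iodine removal were looked at from a list of 4. Dio2, the activating deiodinase of brain and brown fat, had 13 reads at most in a kidney library and 2 in a liver library, and Dio3, the inactivating deiodinase, had 10 at most in kidney and 0 in liver, so both were too low to test. Iyd, which recovers iodide from iodotyrosines, was at 41.5, 39.1 and 41.2 CPM in kidney JQ1 treatment libraries, 60.3 to 64.4 CPM in JQ1 recovery libraries and 50.1 to 62.0 CPM in vehicle libraries. It fell without overlap in kidney (log2 fold change -0.47 ± 0.08, SE, adjusted p = 0.00216 by edgeR). In liver Iyd was at 0.11 ± 0.11 (SE, adjusted p = 0.844 by edgeR), and the difference between organs was -0.57 (adjusted p = 0.133 by edgeR), so it was not shown to differ between them.

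Of 16 genes of selenoproteins and their synthesis, all tested in both organs, 1 rose and 2 fell in kidney at treatment and 1 rose and 1 fell in liver, at medians of -0.00 and 0.04. Dio1 is in this list and is counted among those that fell in each organ. Over all genes tested, 4.13% in kidney and 0.495% in liver were called, at medians of -0.01 and 0.00. DESeq2 called 3 of the 16 in kidney and 2 in liver, with 7 and 4 at an unadjusted p below 0.05. Such an unadjusted p was held by 2926 of all 17158 genes tested in kidney and 1387 of 14559 in liver. In kidney Gpx1, a glutathione peroxidase, rose by 0.62 ± 0.08 and Sephs2, which makes the selenium donor, fell by 0.25 ± 0.06 on the log2 scale (SE; adjusted p = 8.39e-05 and 0.0309 by edgeR), beside Dio1. In liver Selenop, the plasma selenium carrier, was at 2918, 3195 and 3345 CPM in JQ1 treatment libraries, 1602 to 1939 CPM in JQ1 recovery libraries and 1784 to 2099 CPM in vehicle libraries. It rose without overlap (log2 fold change 0.70 ± 0.13, SE, adjusted p = 0.034 by edgeR), while Dio1 fell in the same livers. In kidney Selenop was at 837.8 to 1059 CPM in JQ1 treatment libraries and 836.4 to 1162 CPM in vehicle libraries, and the organ difference was -0.74 ± 0.15 (kidney minus liver, SE, adjusted p = 0.0362 by edgeR).

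Other carriers, binding proteins and receptor partners were mostly not called. At treatment 4.13% of all genes tested were called in kidney and 0.495% in liver by edgeR. An unadjusted p below 0.05 was held by 2926 of 17158 genes in kidney and 1387 of 14559 in liver. Of 13 transporter genes, 10 were tested in kidney, where 1 rose at treatment, and 11 in liver, where 0 were called by edgeR and 1 by DESeq2 and 1 had an unadjusted p below 0.05, Slc16a10 itself. The gene that rose was Slc3a2, the heavy chain of amino acid exchangers (log2 fold change 0.38 ± 0.07, SE, adjusted p = 0.00204 by edgeR). Among the binding proteins, Serpina7, which carries thyroxine in plasma, was at 13.2, 10.1 and 13.3 CPM in liver JQ1 treatment libraries, 9.07 to 13.2 CPM in JQ1 recovery libraries and 17.6 to 23.9 CPM in vehicle libraries. Both JQ1 groups lay below the vehicle libraries, but neither was called by edgeR (log2 fold change -0.79, adjusted p = 0.0607 at treatment, and -1.0, adjusted p = 0.0976 in recovery, by edgeR). JQ1 recovery library 1, the one with few kidney marker reads, was the highest of its group at 13.2 CPM. Of the 4 binding proteins tested in liver, 0 were called by edgeR in either comparison, while DESeq2 called 1 at treatment and 2 in recovery, with 2 at treatment and 3 in recovery at an unadjusted p below 0.05. In recovery 0.0343% of all genes tested in liver were called by edgeR, and 2430 of 14559 had an unadjusted p below 0.05. Ttr, the other carrier of thyroxine in plasma, was at 0.51 in liver (adjusted p = 0.499 by edgeR). In a list of 18 receptors, partners and coregulators, Thra was the 1 gene called in kidney at treatment by edgeR, against 2 genes by DESeq2 and 4 at an unadjusted p below 0.05, and 0 were called in liver by edgeR or DESeq2, with 2 at an unadjusted p below 0.05. Rxra, a partner of both receptors, was at -0.27 (adjusted p = 0.0666) in kidney and -0.02 (adjusted p = 0.977) in liver by edgeR.

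Thyroid hormone responsive genes were read from a list of 23. In kidney 20 were tested, of which 2 rose and 1 fell at a median of 0.03, and in liver 21 were tested, of which 0 rose and 1 fell at a median of -0.14. The medians over all genes tested were -0.01 and 0.00, and 4.13% and 0.495% of all genes were called. DESeq2 called 4 of the listed genes in kidney and 2 in liver, with 9 in kidney and 6 in liver at an unadjusted p below 0.05. Over all genes tested, 2926 of 17158 in kidney and 1387 of 14559 in liver had such an unadjusted p. The gene that fell was Dio1 itself in each organ. Those that rose in kidney were Pck1, the rate-limiting enzyme of gluconeogenesis (0.77 ± 0.13, SE, adjusted p = 0.00472), and Idh3a of the citric acid cycle (0.29 ± 0.07, SE, adjusted p = 0.0194, both by edgeR). Klf9, a transcription factor induced by the hormone in many tissues, was at -0.09 in kidney and -0.14 in liver, and Me1, the malic enzyme, at -0.19 in kidney and 0.25 in liver, none called at treatment against vehicle by edgeR (adjusted p = 0.582, 0.905, 0.203 and 0.782). Hr, another gene induced by the hormone, had 14 reads at most in a library. Around Thrsp, 0 of the 14 lipogenic genes tested in kidney were called at treatment by edgeR or DESeq2, with 2 at an unadjusted p below 0.05. In liver 0 of the 15 tested were called by edgeR and 1 by DESeq2, with 4 at an unadjusted p below 0.05. Mid1ip1, the paralog of Thrsp, was at 24.7 ± 3.18 CPM in liver JQ1 treatment libraries and 40.9 ± 7.26 CPM in vehicle libraries (SD, n = 3 and 4), a log2 fold change of -0.73 that was not called (adjusted p = 0.0593 by edgeR).

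Aromatic amino acids are the other cargo of Slc16a10. Among the genes of their handling tested in kidney, Slc3a2 rose at treatment, with the values given above, and Hpd of tyrosine breakdown fell (log2 fold change -2.39 ± 0.37, SE, adjusted p = 0.0143 by edgeR). In liver 0 of 8 were called by edgeR, with 1 at an unadjusted p below 0.05 and called by DESeq2, Slc16a10 itself. Over all genes tested, 4.13% were called in kidney and 0.495% in liver by edgeR. In liver 1387 of 14559 genes had an unadjusted p below 0.05.

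The genes whose pattern over the 10 libraries of an organ was most like each member were taken by Pearson's r of log2 CPM, as a description over libraries that share groups and depth. For Dio1 these were Kmo (r = 0.988), Cckar (0.978) and C130074G19Rik (0.974) in kidney, out of 10623 genes compared, and Lect2 (0.956), Amy1 (0.953) and Dsg1c (0.953) in liver, out of 8849. For Thrsp in kidney they were Fasn (0.958) and Scd1 (0.956), which encode enzymes of fatty acid synthesis and desaturation, and Plin2 (0.926), a coat protein of lipid droplets. In liver Thrsp had lower values, with Vapa (0.907), Golga1 (0.874) and Crb3 (0.848). For Slc16a10 they were Sntb2 (0.915), Smim10l1 (0.905) and Gm38082 (0.896) in kidney and Fggy (0.966), Tuba1c (0.951) and Mup11 (0.932) in liver. For Thra they were Cyp2d9 (0.975), Gss (0.972) and Gm10687 (0.971) in kidney and Pdzd11 (0.937), Cryab (0.92) and Polr3d (0.914) in liver, and for Thrb Zfp318 (0.914), Ube2g1 (0.887) and Tcea1-ps1 (0.874) in kidney and Celf2 (0.961), Cyp4v3 (0.934) and Tk2 (0.924) in liver.

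Markers of other cell types differed at treatment in both organs. Over all genes tested, 4.13% were called in kidney and 0.495% in liver by edgeR. An unadjusted p below 0.05 was held by 2926 of 17158 genes in kidney and 1387 of 14559 in liver. Of 6 immune markers tested in kidney 2 fell by edgeR, Cd74 and H2-Eb1, which serve antigen presentation, and 3 were called by DESeq2. The macrophage genes Lyz2 and Adgre1 were at 2.26 (adjusted p = 0.21) and 0.67 (adjusted p = 0.617), not called by edgeR. The summed immune markers were at 46.0 to 348.5 CPM in JQ1 treatment libraries and 67.5 to 145.6 CPM in vehicle libraries. Of 5 red cell markers 3 rose, with sums of 9080 to 12080 CPM in JQ1 treatment libraries and 4779 to 8246 CPM in vehicle libraries, and of 10 kidney epithelium markers 2 rose and 2 fell, with sums of 15410 to 17070 CPM in JQ1 treatment libraries and 17850 to 27150 CPM in vehicle libraries. The part of these cell types in the kidney differences of Dio1 and Thra was not tested. In liver the immune markers summed to 86.4 to 89.3 CPM in JQ1 treatment libraries and 102.0 to 158.4 CPM in vehicle libraries, without overlap. All 7 tested had a log2 fold change below 0. By edgeR 1 was called, Cd74 (log2 fold change -2.56 ± 0.43, SE, adjusted p = 0.033), and 2 by DESeq2, with 4 at an unadjusted p below 0.05. H2-Eb1 was at -3.58 (adjusted p = 0.0604 by edgeR). The changes of Ptprc, Lyz2 and Clec4f were smaller, at -0.22, -0.27 and -0.04 (adjusted p = 0.793, 0.521 and 0.982 by edgeR). The adipocyte list summed to 2591 to 3052 CPM in liver JQ1 treatment libraries and 3879 to 5411 CPM in vehicle libraries. Of its 14 genes, 6 or 7 were at 0 in each of these JQ1 treatment libraries, so the sum is no measure of fat cells in liver. Of the 8 tested, 0 were called by edgeR and 1 by DESeq2, with 2 at an unadjusted p below 0.05. The hepatocyte markers summed to 76590 to 93220 CPM in JQ1 treatment libraries and 68270 to 73930 CPM in vehicle libraries, with 0 of 10 called by edgeR and 1 by DESeq2. The part of these cell types in the liver levels of Dio1 and Slc16a10 was not tested.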

How the data were processed

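Polyadenylated RNA of 20 organ samples was sequenced as single-end reads. According to the methods and labels, the authors trimmed reads with fastp 0.20.1 and quantified GENCODE mouse transcripts with Salmon 1.10.0. The deposited tables give an estimated count and a TPM for each of 147833 transcripts. Estimated counts were summed to 55642 genes and rounded, and TPM were summed. Each organ was fitted in edgeR 4.0.16 (R 4.3.3) with TMM factors and JQ1 treatment, JQ1 recovery and pooled vehicle as groups, after filterByExpr (count of 10 at least, total of 15 at least). A joint fit of both organs gave the organ comparisons. Quasi-likelihood p-values were adjusted over all genes tested by the Benjamini-Hochberg method at 0.05, and DESeq2 1.42.0 was run as an alternative. Shares of all genes called are from edgeR, and the share called by DESeq2 is not given here. The script was tested on simulated data. Genes were named by list membership and adjusted p, partners whatever their values, and the 3 genes of highest r among those of at least 5 CPM. Some genes of the lists are not reported here. The labels do not say whether kidney and liver libraries of the same group and number came from the same animal. Member genes and lists were chosen with earlier results of these data known. A legend of the study gives a shorter recovery and reverses the numbers of vehicle samples at treatment and recovery; the labels, whose ages place recovery 6 weeks after treatment, were followed. Intervals do not cover errors of transcript assignment.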

Additional observations from a re-analysis of the deposited data

Results flagged for a closer look

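The fall of Dio1 at treatment was larger in kidney than in liver, by a log2 difference of -1.48 (kidney minus liver, SE 0.25, adjusted p = 0.0117 by edgeR), with Dio1 lower than every vehicle library in 3 of 3 JQ1 treatment libraries of each organ. Without kidney JQ1 treatment library 1 the difference was -1.41 and no longer called (adjusted p = 0.0564 by edgeR). It was also not called with kidney and liver libraries of the same group and replicate number fitted as pairs (adjusted p = 0.143 by edgeR). The kidney value rests on 22 to 48 reads a library at treatment, against 477 to 578 in liver. No vehicle library stood apart by Dixon's test in any of the 10 sets of 4 libraries that were examined, a size at which the test has little power. Kidney vehicle treatment library 3 had Dio1 at 12.6 CPM, against 6.93 to 7.94 CPM in the other kidney vehicle libraries.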

How the results depend on the processing

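The fall of Dio1 at treatment against vehicle was called under all 15 alternatives in kidney (log2 fold change -2.43 to -2.08) and all 16 in liver (-0.91 to -0.82), and the counts of called genes that moved did so by 1 gene. In kidney at treatment against vehicle 1 gene was called in place of 2 with length-scaled TPM counts, with vehicle of the same time only, with only both arms compared and with the replicate number as a replicate block (1 gene), and 1 to 2 when single libraries were left out. Against JQ1 recovery it was 1 with length-scaled TPM counts and 1 to 2 with single libraries left out. In liver at treatment against vehicle 2 were called in place of 1 by DESeq2, without the filter on low counts, with only both arms compared, without JQ1 recovery libraries 2 and 3 and with library size in place of TMM. Against JQ1 recovery it was 2 by DESeq2, without the filter and with library size, 0 with only both arms compared and 0 to 1 with single libraries left out. For the organ difference it was 2 by DESeq2 and 0 to 1 with single libraries left out. It was 0 with kidney and liver libraries of the same group and number fitted as pairs (Dio1 adjusted p = 0.143 by edgeR). The gene at the edge was Thra in kidney and Slc16a10 or Dio1 in liver and in the organ difference. Leaving out JQ1 recovery libraries 2 and 3 and scaling by library size were chosen after seeing the data. The causes were not tested.

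Among these fits, signs turned only for log2 fold changes that were not called. In kidney at treatment against vehicle, Slc16a10 was -0.03 with vehicle of the same time and -0.058 with library size (single libraries left out, -0.033 to 0.1), Thrb -0.015 with length-scaled counts and -0.072 with library size (-0.006 to 0.05), and Thrsp 0.012 with the replicate block (-0.708 to 0.63). In kidney at recovery against vehicle, Slc16a10 was 0.009 with length-scaled counts and 0.191 with vehicle of the same time (-0.087 to 0.035), Thrb -0.191 with length-scaled counts, and Thra -0.08 with vehicle of the same time and -0.015 with library size (-0.028 to 0.056). In kidney at treatment against recovery, Slc16a10 ran from -0.007 to 0.112 and Thrb from -0.148 to 0.009 with single libraries left out, and Thrb was 0.175 with length-scaled counts. In liver, Thra at treatment against vehicle was 0.003 with length-scaled counts (-0.09 to 0.047), and Thrb against recovery ran from -0.247 to 0.055. In liver at recovery against vehicle, without JQ1 recovery libraries 2 and 3, Slc16a10 was 0.012, Thrb 0.176, Dio1 0.0 and Thra -0.021. With library size they were 0.034 for Slc16a10, 0.12 for Thrb and 0.017 for Dio1, and Thrb was 0.087 with length-scaled counts. With single libraries left out Slc16a10 ran from -0.236 to 0.007 and Thrb from -0.176 to 0.118. The organ difference of Thrsp was -0.032 with library size (-0.54 to 0.77).

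Deviations of same-numbered libraries of different groups correlated at -0.134 to 0.102 in kidney and -0.057 to 0.011 in liver. Kidney and liver libraries of the same group and number correlated at -0.067 to 0.16. Such low values cannot tell whether a kidney and a liver library came from the same animal. The 22 to 48 Dio1 reads of kidney JQ1 treatment libraries limit the precision of its fold change.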
